A study of Mus musculus with 16 samples.

Results

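The genes described here are the TET dioxygenases Tet1, Tet2 and Tet3, the DNA methyltransferases Dnmt1, Dnmt3a and Dnmt3b, the maintenance factor Uhrf1, and the thymine glycosylases Tdg and Mbd4. They were taken by symbol from a table of 18929 genes, and all 9 were found. All 9 also passed the filter on low values, so each was tested. Expression was measured by poly(A) RNA sequencing in 16 tumors grown from B16F10, a mouse melanoma cell line, under the skin of young adult female C57BL/6 mice. The mice were 7 to 8 weeks old when given the cells. The tumors came from 4 groups of 4: vehicle (corn oil with an IgG isotype control), anti-PD1 (a monoclonal antibody against the T-cell checkpoint receptor PD1), α-KG (α-ketoglutarate), and α-KG + anti-PD1 (the combination). Every mouse carried a tumor of the same line and was injected intraperitoneally for 9 to 11 days, and tumors were taken once they had grown to a set volume. The α-KG dose was 100 mg/kg, alone and in the combination. The RNA came from whole tumors and mixed melanoma cells with host cells, so fewer cells of a type and less RNA per cell cannot be told apart. Values are FPKM, the number of sequenced fragments scaled by transcript length and by all mapped fragments, and errors are SD with n = 4 tumors unless stated.

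DNA methylation in mammals is placed mainly on cytosines that precede guanines (CpG sites). Dnmt3a and Dnmt3b set new methyl groups, while Dnmt1, brought to newly copied DNA by Uhrf1, restores them after each cell division. The TET enzymes remove them by oxidizing methylcytosine, and they use α-KG (also called 2-oxoglutarate) as a cosubstrate, which is why these genes are of interest in tumors given α-KG. Tdg excises the more oxidized TET products so that base excision repair can put back a plain cytosine. Mbd4 removes thymine where a methylcytosine has been deaminated. RNA levels are not enzyme activity, and neither DNA methylation nor hydroxymethylation was measured in these files.

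The genes that write and erase CpG methylation can themselves start in CpG-rich DNA. The RefSeq promoter set (GRCm38.p6, the same assembly as mm10) gave 14 start windows for the 9 genes, each the 250 bases before a transcription start. Their median was 20 CpG sites, beside a median of 6 over 32817 windows of the same length. Windows of 3 genes that were higher in combination tumors than in vehicle tumors are printed 5′ to 3′ on the gene's strand, with every CpG in capitals: Tet2 (chr3:133544391-133544640, minus strand, 51 CpG sites), Dnmt3a (chr12:3806730-3806979, plus strand, 38 CpG sites) and Dnmt3b (chr2:153649199-153649448, plus strand, 21 CpG sites).
Tet2: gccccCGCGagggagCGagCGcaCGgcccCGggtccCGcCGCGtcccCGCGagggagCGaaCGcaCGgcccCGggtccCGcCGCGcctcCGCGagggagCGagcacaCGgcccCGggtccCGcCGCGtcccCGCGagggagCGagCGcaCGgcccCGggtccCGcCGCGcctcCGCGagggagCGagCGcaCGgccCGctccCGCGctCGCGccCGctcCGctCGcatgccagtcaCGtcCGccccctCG
Dnmt3a: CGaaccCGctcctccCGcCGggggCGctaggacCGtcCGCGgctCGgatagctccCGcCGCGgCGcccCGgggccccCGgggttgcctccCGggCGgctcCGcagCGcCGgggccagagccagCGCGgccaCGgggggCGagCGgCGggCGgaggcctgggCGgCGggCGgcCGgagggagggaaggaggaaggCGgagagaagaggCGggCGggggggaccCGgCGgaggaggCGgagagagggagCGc
Dnmt3b: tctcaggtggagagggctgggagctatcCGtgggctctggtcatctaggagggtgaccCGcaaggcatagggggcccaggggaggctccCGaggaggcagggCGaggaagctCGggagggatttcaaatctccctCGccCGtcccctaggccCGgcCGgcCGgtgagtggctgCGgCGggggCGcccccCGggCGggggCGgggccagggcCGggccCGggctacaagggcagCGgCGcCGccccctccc
The Tet2 window held more CpG sites than 99.9% of all windows. The pentamer CCAAT, searched on both strands, was in 7 of the 14 windows and in 33.8% of all windows. The STAT-type palindrome TTCNNNGAA was in 1 of the 14 windows, that of Tdg, and in 7.01% of all windows. These matches describe letters and not binding.

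The FPKM sum per tumor ran from 514180 to 654772, and the total number of reads was not given, so depth is unknown. Hemoglobin genes took 2.09 to 2.23% of the FPKM sum in the combination tumors and 4.23 to 22.2% in the other 12. Melanocyte markers (8 of 8 found) summed to between 8103 and 11017 FPKM in every tumor, which fits the melanoma label. Leukocyte content differed: the 8 pan-leukocyte markers summed to 528 to 1169 FPKM in combination, 729 to 793 in α-KG, 453 to 622 in anti-PD1 and 340.7 to 446 in vehicle tumors. The median of all 12850 tested genes was 0.15 log2 units higher in the combination than in vehicle tumors, and genes with transcripts of 8000 nucleotides or more had a median of 0.24 in this comparison, beside -0.02 for those under 1000. Tet1, Tet2, Tet3 and Dnmt3a have longest transcripts of 14369, 9179, 10904 and 9685 nucleotides. Among the vehicle tumors, tumor 1 had the highest Tet2, Tet3, Dnmt3a, Dnmt3b and Mbd4 of its group, so the results that rest on it are also given without it.

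The 9 genes spanned a wide range of abundance per transcript length. Averaged over all 16 tumors, Uhrf1 (56.8 FPKM) and Tdg (53.8 FPKM) were the most abundant, followed by Dnmt1 (35.97 FPKM) and Dnmt3a (16.7 FPKM). Tet3 (7.75 FPKM), Mbd4 (6.55 FPKM) and Tet2 (4.55 FPKM) were in the middle of the list, and Dnmt3b (2.28 FPKM) and Tet1 (0.838 FPKM) were lowest. Tet1 was above only 8.09% of the tested genes by its mean. Tet2 varied most between tumors, with a highest value 5.01 times the lowest, and Tdg varied least, at 1.56 times.

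**Figure D1:**
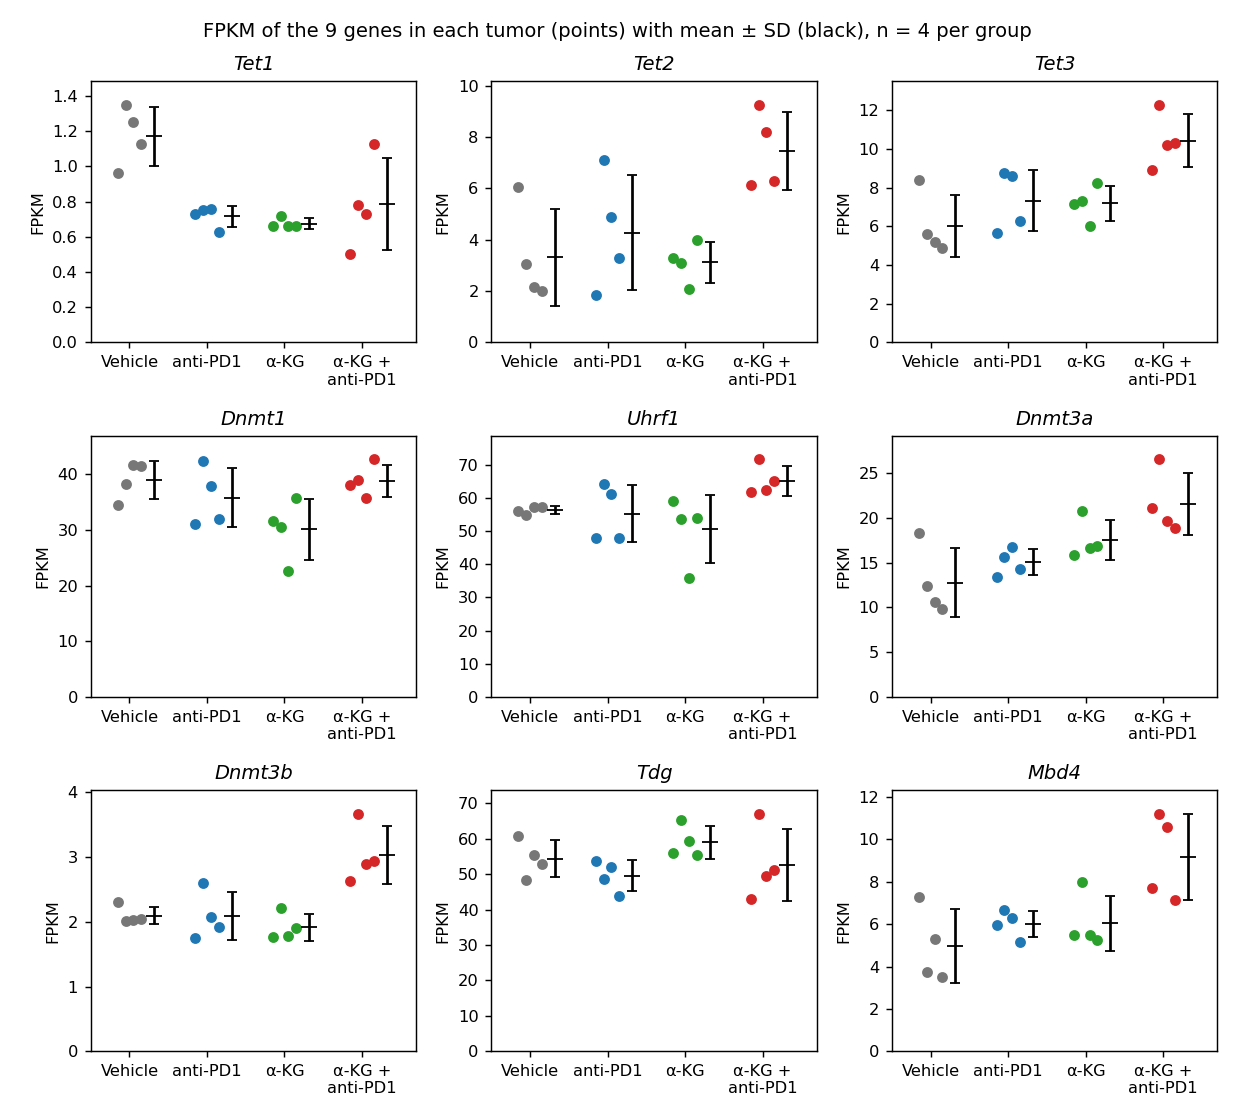
FPKM of each of the 9 genes (vertical axes, starting at 0) in each tumor of the 4 groups (horizontal axes); black marks are mean ± SD of 4 tumors. Tet2, Tet3, Dnmt3a and Dnmt3b sit highest in the combination tumors, Tet1 highest in vehicle, and Tdg shows no clear step between groups.

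The first comparison asked how these genes differed between tumors given both agents and vehicle tumors. Tet2, Tet3, Dnmt3a, Dnmt3b and Mbd4 rose and Tet1 fell in combination tumors, while Dnmt1, Uhrf1 and Tdg did not pass the test. Thus 2 of the 3 TET enzymes and 2 of the 3 methyltransferases rose together. The test was limma on log2(FPKM + 1) over all 12850 genes, with Benjamini-Hochberg adjustment and a threshold of 0.05, and this call is meant wherever a gene is said to have risen or fallen. With it, 5 of 9 genes were higher, where 34.9% of all tested genes were, and 1 of 9 was lower, where 10.5% were. The median log2 fold change of the 9 was 0.38, beside 0.15 over all tested genes.

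Tet2, the TET enzyme known for its part in blood cells, measured 6.14, 9.26, 8.19 and 6.28 FPKM in the combination tumors and 6.06, 3.04, 2.15 and 2.00 FPKM in the vehicle tumors. The groups did not overlap, but vehicle tumor 1 lay within 0.1 FPKM of the lowest treated tumor. The log2 fold change was 1.05 (SE 0.299, limma adjusted p = 0.0110), or 0.89 above the median of all genes, and 1.31 without vehicle tumor 1. Tet3, best known for oxidizing the paternal genome after fertilization, measured 8.93, 12.29, 10.22 and 10.32 FPKM against 8.40, 5.63, 5.22 and 4.89 FPKM. Again the groups did not overlap and vehicle tumor 1 was the closest. Its log2 fold change was 0.72 (SE 0.159, limma adjusted p = 0.00255), and 0.87 without vehicle tumor 1. Tet1, by contrast, was low throughout, with 0.50, 0.78, 0.73 and 1.13 FPKM in combination tumors and 0.96, 1.35, 1.25 and 1.13 FPKM in vehicle tumors. The groups overlapped through treated tumor 4. The log2 fold change was -0.29 (limma adjusted p = 0.0336), and this call was lost without treated tumor 1, 2 or 3 or vehicle tumor 2, 3 or 4, with adjusted p up to 0.113.

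Among the methyltransferases, Dnmt3a measured 21.08, 26.53, 19.69 and 18.88 FPKM in combination tumors and 18.28, 12.33, 10.64 and 9.82 FPKM in vehicle tumors. The groups did not overlap, and vehicle tumor 1 was again within 1 FPKM of the treated tumors. The log2 fold change was 0.74 (SE 0.156, limma adjusted p = 0.00195), and 0.91 without vehicle tumor 1. Dnmt3b measured 2.63, 3.67, 2.90 and 2.94 FPKM against 2.30, 2.02, 2.03 and 2.04 FPKM, which is a small and non-overlapping difference at a low level. Its log2 fold change was 0.38 (SE 0.106, limma adjusted p = 0.0103) as deposited, but it was -0.15 (adjusted p = 0.229) after quantile normalization and 0.06 (adjusted p = 0.597) with tumor medians made equal, so its direction depended on the scaling. Dnmt1, the maintenance enzyme, measured 38.19, 38.92, 35.79 and 42.73 FPKM against 34.56, 38.27, 41.71 and 41.60 FPKM. The groups overlapped fully, and the 95% interval of the log2 fold change ran from -0.27 to 0.26. Its recruiting partner Uhrf1 measured 61.75, 71.58, 62.22 and 65.02 FPKM against 55.96, 54.84, 57.12 and 57.21 FPKM. The Uhrf1 groups did not overlap (2-sided exact permutation p = 0.0286, the smallest that 70 divisions of 8 tumors allow), but limma gave a log2 fold change of 0.21 with a 95% interval from -0.07 to 0.48 (adjusted p = 0.211).

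The glycosylases differed from each other. Mbd4 measured 7.70, 11.21, 10.57 and 7.15 FPKM in combination tumors and 7.30, 3.75, 5.32 and 3.52 FPKM in vehicle tumors. The groups overlapped only through vehicle tumor 1, which lay above the lowest treated tumor. The log2 fold change was 0.79 (SE 0.189, limma adjusted p = 0.00399), and 0.96 without vehicle tumor 1. Tdg measured 42.92, 67.00, 49.32 and 51.16 FPKM against 60.81, 48.23, 55.46 and 52.95 FPKM, with full overlap and a 95% interval of the log2 fold change from -0.30 to 0.18. By range alone, 5 of 9 genes (Tet2, Tet3, Dnmt3a, Dnmt3b and Uhrf1) had every treated tumor above every vehicle tumor, where 28.2% of all tested genes did.

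**Figure D2:**
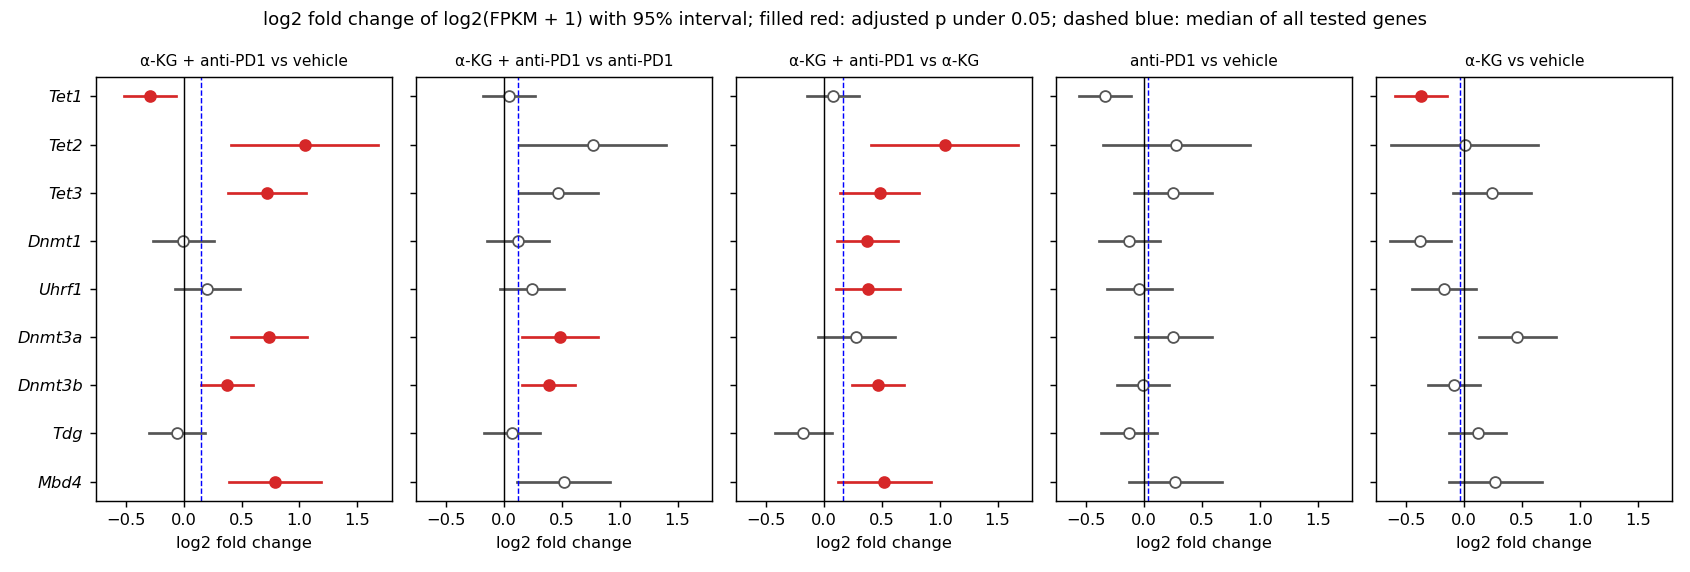
Log2 fold change of log2(FPKM + 1) (horizontal axes) of the 9 genes in 5 comparisons, with 95% intervals from limma; filled red points have an adjusted p under 0.05 and the dashed line is the median of all tested genes. In the first panel 5 genes lie to the right and Tet1 to the left, and the anti-PD1 panel has no filled point.

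Since 4479 genes were higher and 1348 lower in this comparison, its direction rested on how tumors were put on a common scale. The split was 2241 higher and 3994 lower after quantile normalization, 2197 and 4803 with tumor medians made equal, 6294 and 250 with FPKM rescaled to the same sum, and 3074 and 2818 after the trend with transcript length was removed. Through these scalings Tet3 and Dnmt3a rose every time. The Tet3 log2 fold change was 0.35 after quantile normalization, 0.41 with equal medians and 0.47 without the length trend, and that of Dnmt3a was 0.51, 0.43 and 0.49. Tet2 was 0.58 after quantile normalization, where it missed the threshold (adjusted p = 0.0519), and it rose with equal medians (0.73) and without the length trend (0.80). Mbd4 likewise missed it after quantile normalization (0.40, adjusted p = 0.0678). The Dnmt3b call was also lost without the length trend, and the Tet1 call with FPKM rescaled to the same sum and with only these groups fitted, where Uhrf1 passed. With tumor medians made equal, Dnmt1 (-0.32, adjusted p = 0.0280) and Tdg (-0.37, adjusted p = 0.0272) fell. With the pan-leukocyte score as a covariate, an alternative added after the data were seen, limma called 0 genes in this comparison (592 at an unadjusted p under 0.05) and the Tet2 coefficient was 0.05.

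**Figure D3:**
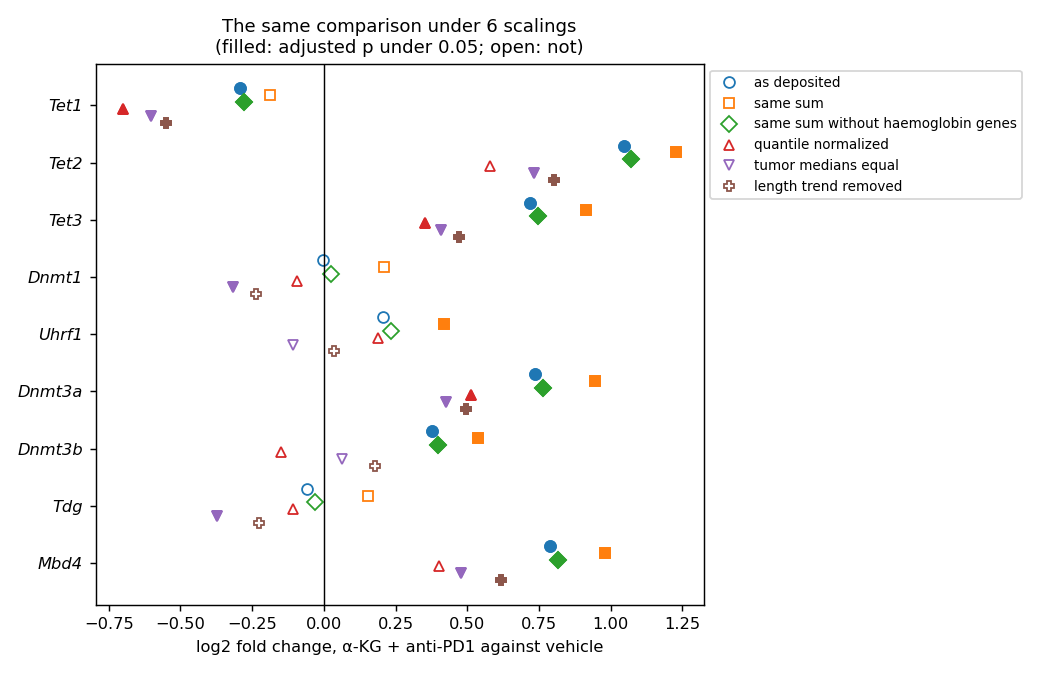
Log2 fold change between the combination and vehicle tumors (horizontal axis) for the 9 genes under 6 scalings of the same values (markers; filled where the adjusted p is under 0.05). Tet3 and Dnmt3a are filled and positive under all 6, whereas Dnmt3b crosses 0 and Dnmt1 and Tdg are filled only with tumor medians made equal.

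The second comparison set the combination against anti-PD1 alone, and so asked what differed when α-KG was added. Dnmt3a and Dnmt3b rose, by 0.48 (limma adjusted p = 0.0474) and 0.39 (limma adjusted p = 0.0290) log2 units, so 2 of 9 genes were higher where 14.2% of tested genes were. The anti-PD1 tumors measured 1.85, 7.09, 4.88 and 3.31 FPKM of Tet2, a spread that overlapped the treated tumors, and the log2 fold change of 0.77 missed the threshold (95% interval 0.13 to 1.40, adjusted p = 0.0870). Tet3 measured 5.68, 8.76, 8.61 and 6.26 FPKM in anti-PD1 tumors, all below the 4 tumors given both agents. Its log2 fold change of 0.47 (95% interval 0.13 to 0.81) had an adjusted p of 0.0559. Mbd4 had a log2 fold change of 0.52 (95% interval 0.12 to 0.92, adjusted p = 0.0703), and Dnmt1, Uhrf1, Tdg and Tet1 had intervals that included 0. In all, 4 genes (Tet3, Dnmt3a, Dnmt3b and Mbd4) did not overlap between the groups, where 13.6% of tested genes did so upward. The Dnmt3a call was lost without treated tumor 1, 2 or 3 or anti-PD1 tumor 1, 3 or 4 (adjusted p up to 0.147). It was also lost with a replicate block (0.0521), without the trend (0.0515), without the filter (0.0696), with a pseudocount of 0.1 (0.0548) and with FPKM rescaled without hemoglobin genes (0.0552), all limma adjusted p. The Dnmt3b call was lost without treated tumor 2 or 3 or anti-PD1 tumor 1 or 4 (adjusted p up to 0.109). Without anti-PD1 tumor 2, Tet2 and Tet3 passed in addition to Dnmt3a and Dnmt3b, at 1.01 and 0.55 log2 units. Other settings moved the count both ways. Array quality weights and FPKM rescaled to the same sum each called 5 of 9 genes, with Tet2 (limma adjusted p = 0.0159 and 0.0395), Tet3 (0.0129 and 0.0233) and Mbd4 (0.0182 and 0.0209) added. Over all 12850 tested genes, 4242 and 4234 were called in these settings. Fitting only the 2 groups, quantile normalization, equal medians, removal of the length trend and the pan-leukocyte covariate each left limma with 0 of the 9 genes called.

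The third comparison set the combination against α-KG alone, and so asked what differed when anti-PD1 was added. Tet2, Tet3, Dnmt1, Uhrf1, Dnmt3b and Mbd4 rose, 6 of 9 genes where 31.8% of tested genes were higher, and the median of the 9 was 0.38 beside 0.16 over all genes. Tet2 measured 3.29, 3.09, 2.10 and 4.00 FPKM in α-KG tumors, all below the lowest tumor given both agents, and its log2 fold change of 1.04 (SE 0.299) had a limma adjusted p of 0.0134. Tet3 measured 7.15, 7.34, 6.04 and 8.23 FPKM in α-KG tumors, also without overlap, and rose by 0.48 (limma adjusted p = 0.0270). In all, 4 genes (Tet2, Tet3, Uhrf1 and Dnmt3b) did not overlap between the groups, where 29.7% of tested genes did so upward. Dnmt1 measured 31.56, 30.47, 22.62 and 35.81 FPKM in α-KG tumors, where tumor 4 reached the level of the lowest treated tumor and tumor 3 was low. Dnmt1 and Uhrf1 rose here by 0.37 and 0.38 log2 units (limma adjusted p = 0.0277 and 0.0313), and both calls were lost without α-KG tumor 3 or treated tumor 2 or 4 (adjusted p up to 0.101). Dnmt3b and Mbd4 rose by 0.47 and 0.52 (limma adjusted p = 0.00399 and 0.0399). The Tet3 call was lost without treated tumor 2 or 3 or α-KG tumor 1 or 3 (adjusted p up to 0.0878), and that of Mbd4 without these or α-KG tumor 4 (adjusted p up to 0.113). Tet2 was the only one of the 9 genes that rose under every scaling tried: its log2 fold change was 0.74 after quantile normalization, 0.77 with equal medians and 0.75 without the length trend. After quantile normalization only the Tet2 and Uhrf1 calls were left. With equal medians and without the length trend, the other 5 calls were lost and Tdg fell instead (-0.45 and -0.38, adjusted p = 0.0170 and 0.0251). The 3 comparisons share the same combination tumors and are not independent of each other.

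Given alone, neither agent raised any of the 9 genes past the threshold in the fit as reported, but with array quality weights Tet3 and Dnmt3a rose and Tet1 and Dnmt1 fell in both comparisons. Under these weights the limma adjusted p of Tet3 was 0.0273 for anti-PD1 and 0.00913 for α-KG, and that of Dnmt3a was 0.00531 and 0.00023. The same weights called 4261 of all 12850 tested genes for anti-PD1 and 5029 for α-KG. Between anti-PD1 and vehicle tumors limma called 0 of 9 genes, where 0.747% of all tested genes were called, and 1 of the 9 had an unadjusted p under 0.05. That gene was Tet1, with 0.73, 0.75, 0.76 and 0.63 FPKM in anti-PD1 tumors, all below the vehicle tumors (log2 fold change -0.34, limma adjusted p = 0.126). Between α-KG and vehicle tumors 1 of 9 genes fell, where 7.53% of tested genes did. It was again Tet1, at 0.66, 0.72, 0.66 and 0.66 FPKM, with a log2 fold change of -0.37 (SE 0.105, limma adjusted p = 0.0249), and the call was lost without α-KG tumor 1 or 3 or vehicle tumor 2, 3 or 4 (adjusted p up to 0.0716), with FPKM rescaled to the same sum (0.0568), without the length trend and with the pan-leukocyte covariate. Tet2 had a log2 fold change of 0.00 with a 95% interval from -0.63 to 0.64. Dnmt1 was lower by 0.38 and Dnmt3a higher by 0.46 log2 units in α-KG tumors, just outside the threshold (limma adjusted p = 0.0510 and 0.0577), and both passed it after quantile normalization, with equal medians and without vehicle tumor 1. Both of these comparisons share the vehicle tumors. Skeletal muscle markers moved with Tet1 in part: their sum was 58.7 to 742 FPKM in vehicle tumors, 2.80 to 4.60 FPKM in the tumors given a single agent and 4.54 to 76.6 FPKM with both agents, and their part in the Tet1 difference was not tested.

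Whether the effect of both agents differed from the sum of the single effects was tested as the interaction. As reported, no gene of the 9 passed (limma, 0 of 9, where 11.1% of tested genes were called), while 4 had an unadjusted p under 0.05. The call depended on the setting. Array quality weights and FPKM rescaled to the same sum each called Tet1 (limma adjusted p = 0.0196 and 0.0463), Dnmt1 (0.0140 and 0.0412) and Dnmt3b (0.0107 and 0.0320). Over all 12850 tested genes, 3350 and 2394 were called in these settings. Dnmt3b also passed without the trend (0.0378) and rescaled without hemoglobin genes (0.0480), and Tet2 passed with the pan-leukocyte covariate (1.35 log2 units, limma adjusted p = 0.0441). With single tumors left out, Tet1 and Dnmt3b passed without treated tumor 1, Dnmt3b without α-KG tumor 2, Dnmt1 without α-KG tumor 4, and Dnmt1 and Dnmt3b without anti-PD1 tumor 2. Dnmt3b came nearest, at 0.48 log2 units (95% interval 0.16 to 0.80, limma adjusted p = 0.0527). Dnmt1 had 0.50 (95% interval 0.13 to 0.88, limma adjusted p = 0.0762) and Tet1 0.42 (95% interval 0.10 to 0.73, limma adjusted p = 0.0781). For Dnmt3b the log2 fold change against vehicle was -0.011 with anti-PD1, -0.089 with α-KG and 0.38 with both. The positive estimates of Tet1 and Dnmt1 did not come from a rise with both agents. Against vehicle, Tet1 was at -0.34 with anti-PD1, -0.37 with α-KG and -0.29 with both, and Dnmt1 at -0.13, -0.38 and -0.0034. Tet2 had the largest estimate and the widest interval, 0.76 with bounds of -0.14 and 1.66. Between α-KG and anti-PD1 alone 0 of 9 genes were called (limma, 3.16% of tested genes), and 1 gene, Tdg, had an unadjusted p under 0.05, with 55.94, 65.26, 59.22 and 55.28 FPKM in α-KG tumors and 53.56, 48.64, 52.03 and 43.73 FPKM in anti-PD1 tumors.

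The order of group means differed by gene. For Tet2 it ran α-KG (3.12 ± 0.784 FPKM), vehicle (3.31 ± 1.89), anti-PD1 (4.28 ± 2.24) and the combination (7.47 ± 1.52), and no neighbors in this order differed past the threshold. For Tet3 it ran vehicle (6.03 ± 1.61 FPKM), α-KG (7.19 ± 0.900), anti-PD1 (7.33 ± 1.59) and the combination (10.4 ± 1.39), again with no neighbors past the threshold, although the top pair did not overlap. Dnmt3a ran vehicle (12.8 ± 3.82 FPKM), anti-PD1 (15.03 ± 1.44), α-KG (17.5 ± 2.20) and the combination (21.5 ± 3.45), and neighbors did not differ past the threshold. Dnmt3b was nearly level in α-KG (1.92 ± 0.208 FPKM), anti-PD1 (2.09 ± 0.367) and vehicle (2.10 ± 0.135) and stood at 3.04 ± 0.445 in the combination, where the comparison with its neighbor, vehicle, passed. Mbd4 ran vehicle (4.97 ± 1.75 FPKM), anti-PD1 (6.01 ± 0.633), α-KG (6.05 ± 1.30) and the combination (9.16 ± 2.03), and its top pair passed. Tet1 ran α-KG (0.675 ± 0.0300 FPKM), anti-PD1 (0.718 ± 0.0597), the combination (0.785 ± 0.260) and vehicle (1.17 ± 0.168), and its top pair passed. Dnmt1 was lowest in α-KG (30.1 ± 5.50 FPKM), then anti-PD1 (35.8 ± 5.27), the combination (38.9 ± 2.88) and vehicle (39.0 ± 3.38), and Uhrf1 ran α-KG (50.6 ± 10.1), anti-PD1 (55.2 ± 8.57), vehicle (56.3 ± 1.12) and the combination (65.1 ± 4.53), with no neighbors past the threshold for either. Tdg ran anti-PD1 (49.5 ± 4.36 FPKM), the combination (52.6 ± 10.2), vehicle (54.4 ± 5.24) and α-KG (58.9 ± 4.56), also with no neighbors past it.

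The TET demethylation genes were then set against the DNMT methylation genes. The summed FPKM of Tet1, Tet2 and Tet3 was 18.7 ± 2.83 in the combination, 11.0 ± 1.68 in α-KG, 12.3 ± 3.79 in anti-PD1 and 10.5 ± 3.37 in vehicle tumors. The summed FPKM of Dnmt1, Dnmt3a and Dnmt3b was 63.5 ± 4.53, 49.5 ± 6.12, 52.9 ± 6.77 and 53.9 ± 1.095 in the same order. As deposited, both sums were therefore highest with both agents, and DNMT transcripts stayed in excess in every tumor. The sums depend on how tumors are scaled and were not taken under other scalings. With tumor medians made equal, Dnmt1 fell against vehicle (-0.32 log2 units), while Dnmt3a, Tet2 and Tet3 rose (0.43, 0.73 and 0.41). As a percentage of the DNMT sum, the TET sum was 27.97, 19.0, 15.9 and 15.002% in vehicle tumors, 17.8, 27.4, 25.1 and 21.1% in anti-PD1 tumors, 22.6, 20.9, 21.4 and 23.6% in α-KG tumors, and 25.2, 32.3, 32.8 and 27.5% in combination tumors. Vehicle tumor 1 reached the range of the doubly treated tumors, and so did anti-PD1 tumor 2. These ratios are given without a test, since the genes were chosen with earlier results known.

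**Figure D4:**
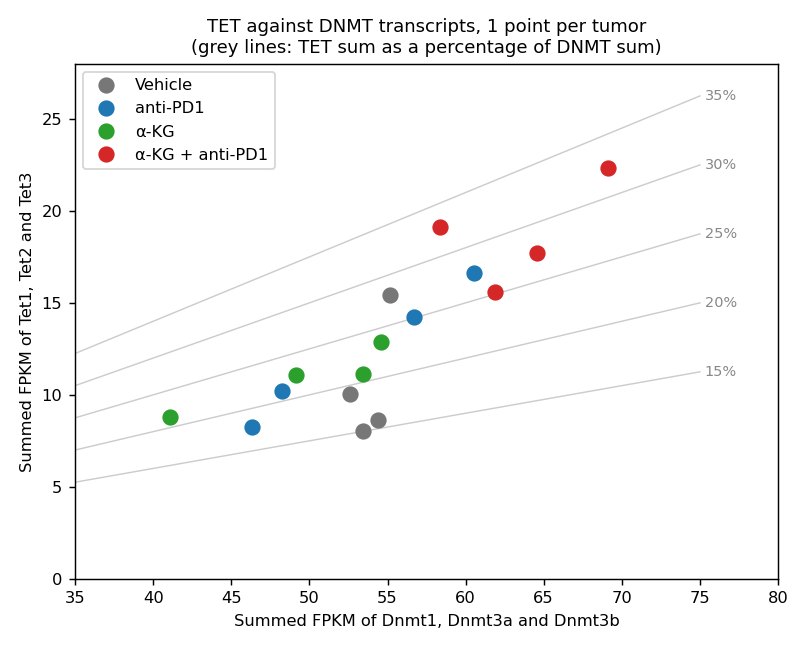
Summed FPKM of Tet1, Tet2 and Tet3 (vertical axis) against that of Dnmt1, Dnmt3a and Dnmt3b (horizontal axis, from 35), 1 point per tumor, colored by group; grey lines mark TET sums of 15 to 35% of the DNMT sum. The 4 combination tumors lie at the upper right, high in both sums as deposited, at 25.2 to 32.8%.

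On the log2(FPKM + 1) scale abundant genes weigh less than in the sums. There the mean of the 3 TET genes minus the mean of the 3 DNMT genes was -1.47 ± 0.116 in the combination, -1.63 ± 0.0909 in α-KG, -1.56 ± 0.156 in anti-PD1 and -1.59 ± 0.166 in vehicle tumors. The pseudocount of 1 understates changes of Tet1, the lowest gene (-0.29 in the combination against vehicle, and -0.56 with a pseudocount of 0.1). The difference of 0.12 between the combination and vehicle was below the spread of 0.136 within groups. It became 0.52 when the least abundant gene of each kind, Tet1 and Dnmt3b, was left out. Tet1 was the only TET gene that fell against vehicle, so leaving it out raised the TET side. Dnmt3b changed by 0.38, between Dnmt1 (-0.0034) and Dnmt3a (0.74). The spread of 0.136 is that of the balance with Tet1 and Dnmt3b kept. Within the TET genes, Tet1 made up 6.23 to 14.5% of the TET sum in vehicle tumors and 3.21 to 6.37% in combination tumors, while Tet2 made up 24.9 to 39.3% and 35.4 to 42.8%. Dnmt3a stood at 52.9, 32.2, 25.5 and 23.6% of Dnmt1 in vehicle tumors, at 36.9 to 44.8% in anti-PD1, at 47.1 to 73.7% in α-KG and at 44.2 to 68.2% in combination tumors. Tet3 kept close to Dnmt3a, at 47.6 ± 2.12, 48.4 ± 6.55, 41.4 ± 6.66 and 48.8 ± 5.52% of it in vehicle, anti-PD1, α-KG and combination tumors.

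Tumors of the same group also differed from each other, and the genes co-varied in these differences. After group means were removed, 12 of 36 gene pairs were correlated at an adjusted permutation p under 0.05 (100000 permutations within groups, Benjamini-Hochberg over the 36). The share of correlated pairs over all tested genes was not computed, so this count cannot be told apart from co-variation of genes in general. Tet2 and Tet3 had the highest Pearson's r, 0.943 (Spearman's rho 0.941, adjusted permutation p = 0.00072 and 0.00108), and r was 0.915 when the 2 tumors whose Tet2 lay farthest from its median were left out. Dnmt1 and Uhrf1, the maintenance pair, followed with r = 0.842 and rho = 0.747 (adjusted permutation p = 0.0366 and 0.0623; r = 0.755 without 2 tumors). Tet3 varied with Dnmt3a (r = 0.775, rho = 0.706, adjusted permutation p = 0.0229 and 0.0582; r = 0.644 without 2 tumors) and with Dnmt3b (r = 0.739, rho = 0.768, adjusted permutation p = 0.0229 and 0.0472; r = 0.722 without 2 tumors). Only Tet2 with Tet3 and Tet3 with Dnmt3b also passed for rho. No pair of a TET and a DNMT gene passed with a negative r. After quantile normalization 2 of 36 pairs passed. Of 27 relations of the 9 genes with the pan-leukocyte, cell cycle and melanocyte scores 0 passed and 4 had an unadjusted permutation p under 0.05, the nearest being Dnmt1 with the cell cycle score (r = 0.771, rho = 0.776, adjusted permutation p = 0.0902 and 0.122; r = 0.728 without 2 tumors). Tet2 with the pan-leukocyte score had r = 0.519 and rho = 0.503 (adjusted permutation p = 0.310 and 0.458; r = 0.316 without 2 tumors).

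**Figure D5:**
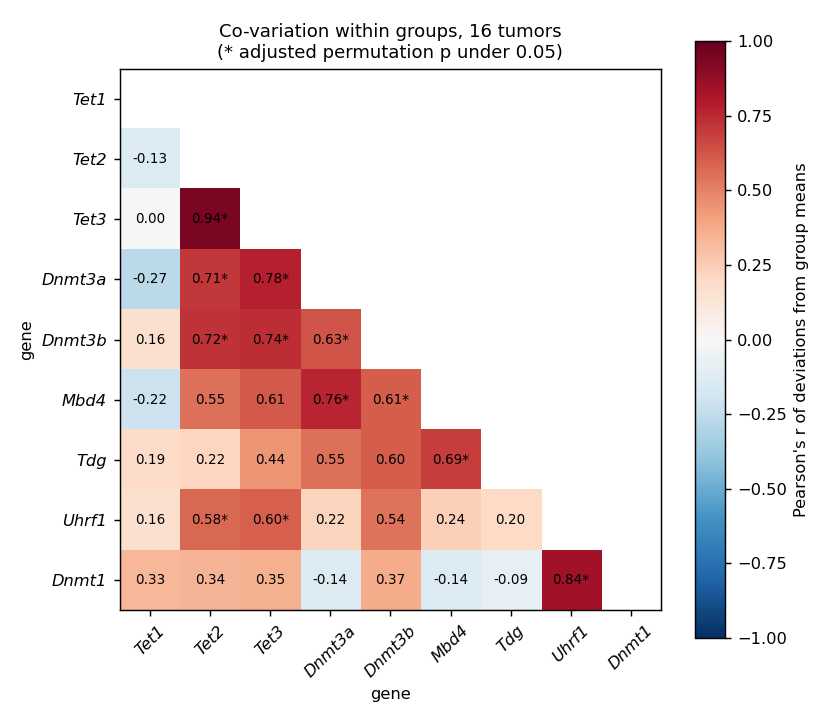
Pearson's r between each pair of the 9 genes (both axes) over 16 tumors after group means were removed, as colored cells with the value; a star marks an adjusted permutation p under 0.05. A block of positive values joins Tet2, Tet3, Dnmt3a, Dnmt3b and Mbd4, another joins Dnmt1 and Uhrf1, and Tet1 stands apart.

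Over all 16 tumors, the tested genes most like Tet2 were Ccnl1 (a cyclin linked to RNA processing, r = 0.990), Wsb1 (a ubiquitin ligase subunit, r = 0.990) and Adcy7 (an adenylate cyclase, r = 0.984), and Tet3 stood at rank 247 with r = 0.941. Those most like Tet3 included the zinc finger genes Zfp740 (r = 0.976) and Zfp263 (r = 0.9751), and Tet2 stood at rank 58. For Dnmt1 they were Csnk1e (a casein kinase, r = 0.928), Nup88 (a nuclear pore protein, r = 0.926) and Gnl2 (a nucleolar GTPase, r = 0.906), with Uhrf1 at rank 112. For Uhrf1 they were the splicing factor Srsf1 (r = 0.935), the RNA-binding protein Celf1 (r = 0.928) and the helicase Ddx51 (r = 0.921), with Dnmt1 at rank 171. These are correlations of log2(FPKM + 1) over the same 16 libraries with the group differences left in, and r after their removal was 0.831 or more for each gene named.

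Of 57 tested genes that work around these enzymes, 19 rose and 11 fell between the combination and vehicle tumors, where 34.9% of all tested genes were higher and 10.5% lower. The share that rose was thus close to that of all genes, and the share that fell was larger than that of all genes. The median change of the 57 was 0.11 on the log2 scale, beside 0.15. After quantile normalization 12 rose and 22 fell, and with equal medians 9 rose and 26 fell. Of all 12850 tested genes, 2241 rose and 3994 fell after quantile normalization, and 2197 and 4803 with equal medians. Among partners of TET enzymes, 1 of 4 rose: Ogt, which attaches sugar to proteins and binds TET enzymes, went from 16.9 ± 8.67 to 38.9 ± 7.40 FPKM (log2 fold change 1.25, limma adjusted p = 0.00478), and it stood at 13.3 ± 2.15 FPKM in α-KG and 20.05 ± 9.08 in anti-PD1 tumors. It rose too after quantile normalization (1.08) and with equal medians (0.94). Among cytosine deaminases and Gadd45 genes, 4 of 6 rose, with Apobec3 at 2.20 ± 1.18, 6.80 ± 2.82, 6.26 ± 2.48 and 22.6 ± 15.1 FPKM and Apobec1 at 2.58 ± 1.15, 6.86 ± 2.17, 5.93 ± 0.734 and 13.2 ± 5.32 FPKM in vehicle, anti-PD1, α-KG and combination tumors. Both are also expressed in leukocytes, whose markers rose in the same tumors (7 of 8 pan-leukocyte, 5 of 5 T cell and 6 of 6 macrophage markers), and the part of these cells was not tested.

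Of 10 genes of base excision repair, the step that follows Tdg, 3 were higher and 3 lower, beside 34.9 and 10.5% of all tested genes. The glycosylases Neil1 and Neil3 rose from 3.58 ± 0.903 to 7.24 ± 1.34 FPKM and from 3.98 ± 0.765 to 8.34 ± 2.44 FPKM (limma adjusted p = 0.000517 and 0.00358), and both rose against α-KG and against anti-PD1 as well. The endonuclease Apex1 and the repair sensor Parp1 fell by 0.38 and 0.43 log2 units (limma adjusted p = 0.00123 and 0.0204). Of 8 methyl-CpG readers, proteins that bind methylated DNA, 5 rose and 1 fell as deposited (median 0.39), but 2 rose and 3 fell after quantile normalization. Mbd1 went from 7.92 ± 1.18 to 12.6 ± 0.959 FPKM (log2 fold change 0.61, limma adjusted p = 0.00305) and held under both scalings, Mbd3 fell by 0.33 (limma adjusted p = 0.00565), and Zbtb4 rose as deposited only (0.55, limma adjusted p = 0.00971). Of 10 tested partners of DNMT enzymes 3 rose and 1 fell: the histone methyltransferases Ehmt2 (0.39, limma adjusted p = 0.00211) and Setdb1 (0.44, limma adjusted p = 0.0138) rose as deposited. With equal medians both calls were lost (Ehmt2 0.08, adjusted p = 0.457), and after quantile normalization that of Setdb1 was. In the same list the replication clamp Pcna fell by 0.39 (limma adjusted p = 0.0163).

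Of 7 tested genes for S-adenosylmethionine, the methyl donor of the DNMT enzymes, 1 rose and 1 fell. Of all tested genes, 34.9% rose and 10.5% fell. Mtap, which recycles methylthioadenosine, fell by 0.45 log2 units (limma adjusted p = 0.00589). Of 12 genes that make or use 2-oxoglutarate or clear 2-hydroxyglutarate, 2 rose and 5 fell as deposited (median -0.20), 1 rose and 5 fell after quantile normalization, and 0 rose and 8 fell with equal medians. Under the last 2 scalings, 2241 and 2197 of all 12850 tested genes rose, and 3994 and 4803 fell. Idh3b and Idh3a, subunits of the enzyme that makes α-KG in the mitochondrion, went opposite ways, by 0.33 and -0.42 log2 units (limma adjusted p = 0.0106 and 0.0459), and the Idh3b rise was lost with equal medians (0.02). D2hgdh, a dehydrogenase of the competing metabolite 2-hydroxyglutarate, rose by 0.42 as deposited (limma adjusted p = 0.00488) but not under the other scalings. Between α-KG and vehicle tumors, 3 of the 57 genes rose, where 8.4% of tested genes did, and 5 fell, where 7.53% did.

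Other cell types moved with these results. T cell markers (5 of 6 found) summed to 0.72 to 7.62 FPKM in vehicle and 17.9 to 155 FPKM in combination tumors, and macrophage markers (6 of 6) to 95.3 to 477 and 662 to 1605 FPKM. Vehicle tumor 1, which stood nearest to the treated tumors for Tet2, Tet3, Dnmt3a and Mbd4, had the highest macrophage (477 FPKM), T cell (7.62 FPKM) and pan-leukocyte (446 FPKM) sums of its group. The α-KG tumors had pan-leukocyte sums of 729 to 793 FPKM, above all vehicle tumors, with Tet2 at 2.10 to 4.00 FPKM. Against these tumors Tet2 rose by 1.05 log2 units with the pan-leukocyte score as a covariate. Its coefficient was 0.05 against vehicle (95% interval -1.02 to 1.13) and 0.35 against anti-PD1 (-0.32 to 1.03), neither past the threshold. In these last 2 comparisons the score differed between the groups, so leukocyte content and treatment cannot be told apart. Against α-KG tumors the score was alike (mean 6.07 in α-KG and 6.06 in combination tumors), but the kinds of leukocyte differed. Macrophage markers summed to 416.37 to 682.98 FPKM in α-KG tumors, and neutrophil markers were far higher there than in combination tumors. The covariate therefore cannot separate the type of leukocyte from treatment in that comparison either. Neutrophil markers (4 of 4) were 1002 to 2624 FPKM in α-KG tumors and 17.3 to 104 FPKM elsewhere. Fibroblast (5 of 5) and endothelial (4 of 4) marker sums were low, at 4.81 to 37.4 and 0.40 to 4.25 FPKM, and Tek was at 0 in all 4 α-KG tumors. The 12 cell cycle genes, set beside Dnmt1 and Uhrf1 because both act at replication, had 8 lower and 0 higher in the combination than in vehicle tumors, while Dnmt1 and Uhrf1 did not pass. Of all tested genes, 10.5% were lower and 34.9% higher. The part of these cell types in the differences above was not tested further.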

How the data were processed

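Poly(A) RNA of 16 tumors (4 groups of 4) was sequenced on the DNBSEQ platform from dUTP-marked cDNA. The deposited FPKM values were computed by the authors and given to 2 decimals for 18929 genes; the submitters' processing notes name HISAT, Bowtie2 and the mouse build mm10, whereas the program behind the FPKM, the annotation and use of strand are not given in the sources used here. No count table was used, so no count model was run. Of 1503 low values, 21.3% lay within 0.1 of a whole multiple of the gene's lowest value above 0 in any tumor, beside 20% by chance. Depth is unknown and 1 read can have a different FPKM in each tumor, so this check cannot decide whether counts could be recovered.

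Genes with at least 0.5 FPKM in at least 4 tumors (12850) were tested on log2(FPKM + 1), a pseudocount of 1 that understates changes of low genes, with limma 3.58.1 (R 4.3.3, empirical Bayes with trend, all 16 tumors) and Benjamini-Hochberg adjustment at 0.05. Tested on simulated data for α-KG + anti-PD1 against vehicle over 12850 genes, it recovered 91% of 200 genes changed by 1 log2 unit, and 8.08% of its calls were genes left unchanged. Single genes were also compared by exact permutation tests over the tumors (Python 3.11.15, NumPy 2.4.6). Transcript lengths came from GENCODE and start windows from RefSeq. The labels gave groups but no batch. The 9 genes and all lists were chosen with earlier results of these data known. Named were all 9 genes, the called pathway genes with up to 2 largest rises and 2 largest falls per list between α-KG + anti-PD1 and vehicle, and the 3 genes most like Tet2, Tet3, Dnmt1 and Uhrf1; a few genes that this rule names are not reported here. The labels mark separate samples, each a separate tumor in the study's methods.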

Additional observations from a re-analysis of the deposited data

Results flagged for a closer look

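Of 40 sets of 4 values examined (9 genes and the TET minus DNMT balance in 4 groups), 3 held a tumor whose gap to the others exceeded Dixon's 95% critical value, where chance flags about 5%. Dnmt3b in vehicle tumor 1 was 2.30 FPKM, with the other vehicle tumors at 2.02 to 2.04 FPKM. Mbd4 in α-KG tumor 2 was 7.99 FPKM, with the other α-KG tumors at 5.24 to 5.51 FPKM. Tet1 in α-KG tumor 2 was 0.72 FPKM, with the other α-KG tumors all at 0.66 FPKM, a gap of a few units in the last decimal deposited. No gene of the 9 had an interaction past the threshold as reported, although Tet1, Dnmt1 and Dnmt3b passed with array quality weights and with FPKM rescaled to the same sum, Dnmt3b also without the trend and rescaled without hemoglobin genes, and Tet2 with the pan-leukocyte covariate.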

How the results depend on the processing

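Calls among the 9 genes depended on scaling. In 2 cases a called value changed sign in the combination against vehicle: Dnmt3b (-0.15 after quantile normalization) and Tet1 (0.0094 with the pan-leukocyte score as a covariate). The cause was not tested.

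Over all tested genes, the number called moved by more than 1.5 times as follows. With array quality weights it was 4242 for the combination against anti-PD1 (1987 as reported), 4261 for anti-PD1 against vehicle (96), 5029 for α-KG against vehicle (2048), 643 for α-KG against anti-PD1 (406) and 3350 for the interaction (1429). With FPKM rescaled to the same sum these were 4234, 29, 1246, 276 (not past 1.5 times) and 2394. With the pan-leukocyte covariate, limma called 0 for the combination against vehicle (592 at an unadjusted p under 0.05) and against anti-PD1 (1801), 0 for anti-PD1 against vehicle (553), 276 for α-KG against vehicle, 977 for α-KG against anti-PD1 and 2710 for the interaction. A fit of the 2 compared groups alone called 0 for the combination against anti-PD1 (4077 at an unadjusted p under 0.05) and 0 for anti-PD1 against vehicle (2137). For anti-PD1 against vehicle the number was also 49 without the trend, 5 without a filter, 312 with a pseudocount of 0.1, 236 without the length trend and 201 with equal medians.

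The split into higher and lower calls moved with scaling also in the combination against anti-PD1 (1819 and 168 as reported, 721 and 1082 after quantile normalization, 802 and 1968 with equal medians, 1038 and 739 without the length trend) and against α-KG (4086 and 832, 2023 and 2020, 1758 and 3127, 2221 and 2121). In the interaction it went from 1027 and 402 to 569 and 559, 389 and 633, and 538 and 665. With single tumors left out, the number called was 4265 to 6644 for the combination against vehicle, 228 to 2937 against anti-PD1, 3459 to 4839 against α-KG, 0 to 885 for anti-PD1 against vehicle, 1256 to 2621 for α-KG against vehicle, 275 to 415 for α-KG against anti-PD1 and 699 to 2362 for the interaction.

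With the replicate number as a block, 5430, 1533, 4482, 1657, 316 and 1010 genes were called for the combination against vehicle, anti-PD1 and α-KG, for α-KG against vehicle and anti-PD1, and for the interaction, and 0 for anti-PD1 against vehicle (1971 at an unadjusted p under 0.05). The block cost 1 call among the 9 genes, Dnmt3a against anti-PD1. Tumors with the same number came from different mice and their deviations correlated between -0.642 and 0.411, so the number does not pair them.

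Without Tet1 and Dnmt3b, the TET minus DNMT difference on the log2 scale was 0.52 for the combination against vehicle (0.12 as reported), 0.31 against anti-PD1 (0.10), 0.44 against α-KG (0.16) and 0.20 for anti-PD1 against vehicle (0.03). In the combination against vehicle, Tet1 was the only TET gene that fell. The number of correlated gene pairs was 2 of 36 after quantile normalization (12 as reported). Depth is unknown, so the precision of low values such as Tet1 could not be set apart from differences between tumors.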
